A study of Mus musculus with 18 samples.

Results

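The transcripts described here are 10 RefSeq rows of the p53 and DNA damage checkpoint pathway. They were chosen by a list of identifiers and not by their values, though earlier results of these data were known. They are the kinases Atm, Atr, Chek1 and Chek2, the transcription factor Trp53 and its ligase Mdm2, the arrest targets Cdkn1a and Gadd45a, and the cell death targets Bax and Bbc3. All 10 rows were present in each of the 18 files, among 26823 rows in all, and all 10 passed the filter of at least 10 counts in at least 3 embryos, as did 15333 rows of the series.

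The pathway answers breaks and stalled forks in DNA. ATM responds mainly to double-strand breaks and ATR to single-stranded DNA at stalled forks, and they activate the kinases CHK2 and CHK1. Both routes stabilise p53, which MDM2 otherwise marks for degradation, so the amount of p53 protein is set largely after translation. p53 then switches on genes of arrest, repair and cell death, including Mdm2 itself. A 2-cell embryo carries RNA stored in the oocyte together with the first transcripts of its own genome.

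The samples were single 2-cell embryos of 129SVE mothers. The paper does not name the strain of the Parg(110)-/- fathers. There were 9 embryos of WT fathers (fathers 1, 2 and 3) and 9 of Parg(110)-/- fathers (fathers 6, 7 and 8), with 3 embryos per father, named here by father and embryo (6-1 and so on). All mothers were wild-type and mated naturally, so the embryos of Parg(110)-/- fathers were themselves heterozygous, and the genotype of a sample is that of its father. Parg(110)-/- males lack the full-length nuclear form of PARG, the enzyme that removes poly(ADP-ribose), and their sperm retain histones abnormally. The groups, called WT and Parg(110) embryos below, were compared to learn whether the father's sperm chromatin alters expression in the embryo. Ages are not given in the sources used here.

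The totals per embryo lay between 2852858 and 13355161 counts in the WT group and between 3560501 and 12497060 in the Parg(110) group. Levels are given as CPM, the count scaled to a common file total, where 1 count was worth 0.075 to 0.351 CPM. Of 12 oocyte and maternal marker transcripts 11 were detected in every embryo. Of 7 transcripts that mark the 2-cell stage, 2 were detected in every embryo, and their summed level was 15.4 to 181 CPM in WT and 41.3 to 265 CPM in Parg(110) embryos. Cumulus cell markers summed to at most 4.17 CPM in any embryo and sperm markers to at most 3.52 CPM, with Amh, Foxl2, Fshr, Prm1, Tnp1 and Tnp2 at 0 in all 18. Parg (NM_011960), the gene disrupted in the fathers, was at 74.7 ± 32.1 CPM (SD, n = 9) in WT and 46.4 ± 18.3 CPM (SD, n = 9) in Parg(110) embryos, with overlapping ranges. Its log2 fold change was -0.67 ± 0.34 (SE, adjusted p = 0.872, edgeR). In an amplified single 2-cell embryo, less RNA per cell and loss during amplification cannot be told apart.

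Across the pathway Mdm2, Gadd45a, Atm, Chek1 and Chek2 were counted in all 18 embryos, while Trp53 itself was at 0 in 4 and each of the other 4 members in 1. No member passed an adjusted p below 0.1 between Parg(110) and WT embryos. In that fit 0 of 15333 transcripts were called (0%), and 889 had an unadjusted p below 0.05 (5.8%), among them 1 of the 10 members, Trp53. DESeq2 called 38 of the 15333 transcripts (0.248%), none of them a member. The fitted log2 fold changes of the members were above 0 for 3 and below 0 for 7, with a median of -0.18 against -0.02 over all transcripts tested. Ranges of the 2 groups overlapped for all 10 members. How common such overlap is over all transcripts was not counted. The same holds for single embryos beyond the range of the other group, which are named below for some members.

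**Figure D1:**
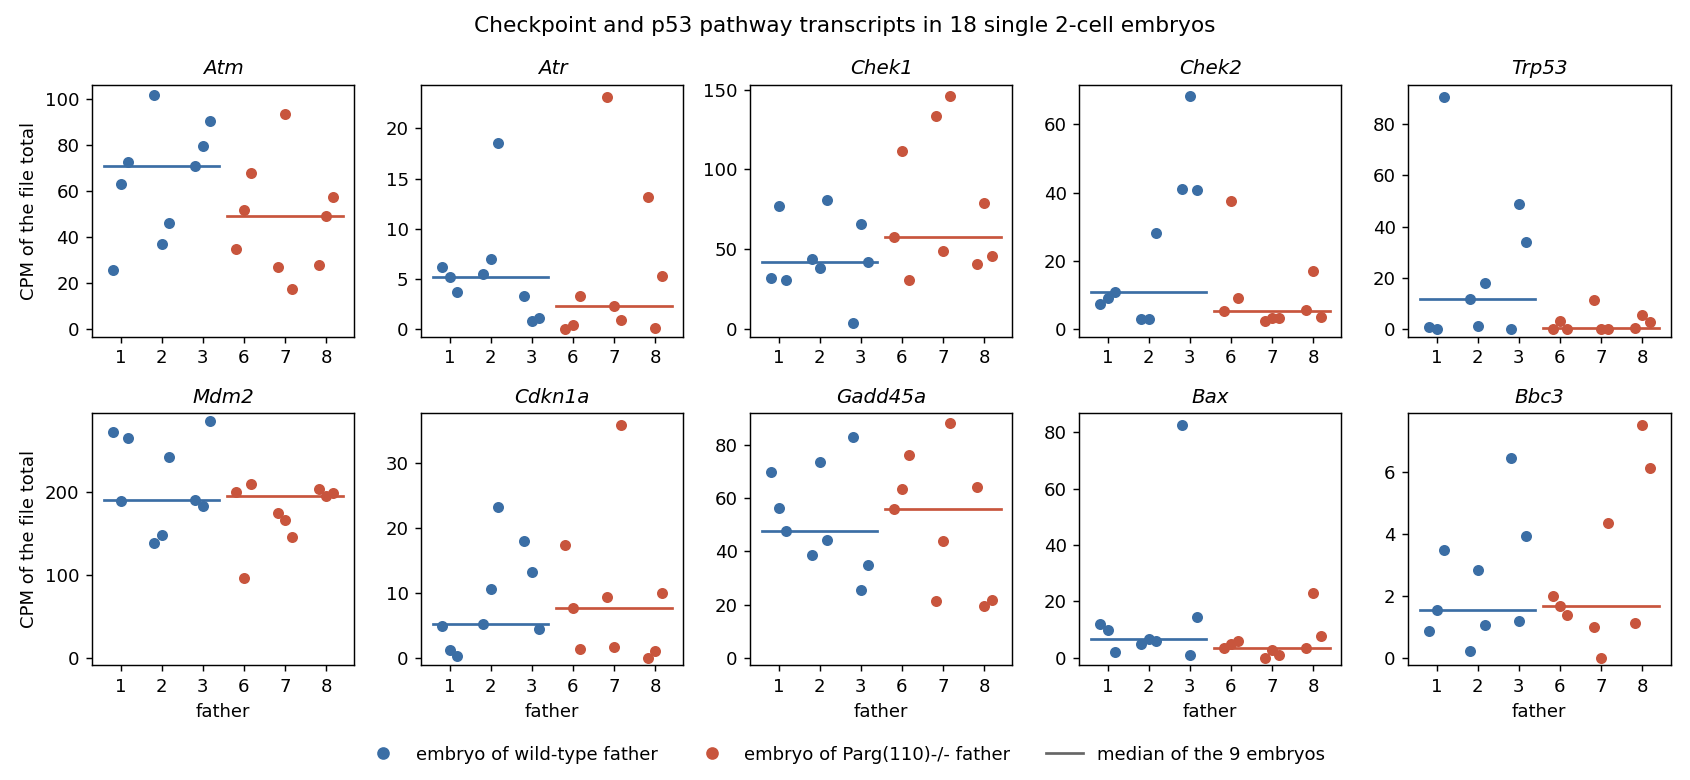
CPM of the file total (y axis) of each of the 10 transcripts in each embryo, by father (x axis), on a linear axis for each gene; points are single embryos and lines the median of the 9 embryos of a group. The points of the groups overlap in every panel, Trp53 is near 0 in most Parg(110) embryos and in 4 WT embryos, and Chek2 is at 40.8 CPM or above in the 3 embryos of WT father 3.

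Levels were compared between genes only after division by the length of the longest coding transcript in GENCODE vM1. Mdm2 was first in that order, with a median of 61.6 CPM per kb over 18 embryos (range 30.6 to 91.2). Gadd45a followed at 42.4 CPM per kb and was below Mdm2 in 14 of 18 embryos. Chek1 came next at 13.9 CPM per kb, below Gadd45a in 16 of 18 embryos and above Atm in 17 of 18. From Atm downwards the neighbours in the order did not separate. Atm (median 5.47 CPM per kb) exceeded Bax (5.23) in 9 of 18 embryos, Bax exceeded Chek2 (3.68) in 11, Chek2 exceeded Cdkn1a (3.35) in 12 and Cdkn1a exceeded Trp53 (1.18) in 11. Trp53 exceeded Bbc3 (0.885 CPM per kb) in 8 of 18 embryos, and Bbc3 exceeded Atr (0.437), the last in the order, in 12 of 18. Per length, the median of Mdm2 was above that of Trp53 in both groups, at 60.9 against 6.38 CPM per kb in WT and 62.3 against 0.301 in Parg(110) embryos.

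**Figure D2:**
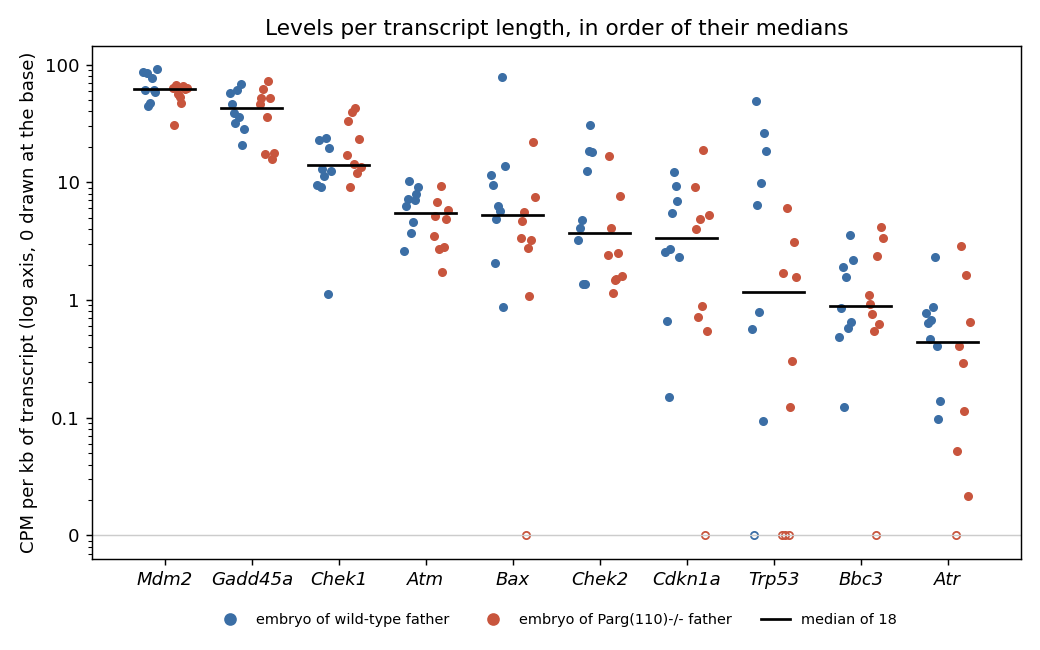
CPM per kb of transcript (log axis, with 0 drawn as open circles at the base) for the 10 transcripts in order of their median over 18 embryos (black lines); each point is an embryo. Mdm2, Gadd45a, Chek1, Atm and Chek2 have no embryo at 0, whereas Trp53 has 4 and spans from 0 to 48.6 CPM per kb.

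Among the kinases, Atm (NM_007499), the kinase of double-strand breaks, lies on chromosome 9 (mm9, chr9:53247254-53344845, minus strand). It ranged from 25.9 to 102 CPM around a median of 71.0 in WT embryos and from 17.3 to 93.5 CPM around a median of 49.0 in Parg(110) embryos. The WT embryos had the higher median, but only embryo 2-1 stood above all Parg(110) embryos. Its log2 fold change was -0.43 ± 0.36 (SE, 95% interval -1.18 to 0.31, adjusted p = 0.966). The difference was smaller than the spread between embryos.

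Atr (NM_019864, mm9, chr9:95758016-95852063, plus strand), the kinase of stalled forks, was sparse. In WT embryos it ranged from 0.79 to 18.6 CPM (median 5.17) and in Parg(110) embryos from 0 to 23.2 CPM (median 2.35). The highest levels were in WT embryo 2-3 and Parg(110) embryos 7-1 (23.2 CPM) and 8-1 (13.2 CPM), and embryo 6-1 had 0 counts of 12497060, which allows up to 0.24 CPM. The limits for 0 counts given here cover counting error only. Its log2 fold change of -0.10 ± 1.00 (SE, 95% interval -2.16 to 1.96) left both directions possible, and its sign turned when embryo 2-3 was left out (0.37). Limma with the father as a random effect gave -1.14. The span of a lincRNA on the opposite strand (Gm16794) covers 914 bases of Atr exons. Strand is not given for the counting, so reads of both could enter this row.

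Chek1 (NM_007691, mm9, chr9:36516067-36534650, minus strand), the kinase that ATR activates to delay mitosis, had the largest positive fitted difference of the members. It ranged from 3.82 to 80.6 CPM (median 42.1) in WT and from 30.7 to 146 CPM (median 57.8) in Parg(110) embryos. The 3 embryos 6-2 (112 CPM), 7-1 (134 CPM) and 7-3 (146 CPM) lay above every WT embryo, and WT embryo 3-1 lay below every Parg(110) embryo. In edgeR the log2 fold change was 0.75 ± 0.43 (SE, 95% interval -0.15 to 1.64, adjusted p = 0.908). The means of the 3 Parg(110)-/- fathers (66.7, 109 and 55.3 CPM) were all above those of the 3 WT fathers (46.7, 54.3 and 37.3 CPM). Of all transcripts tested, 4.27% had their father means separated in this direction, and Chek1 was the only such member of 10.

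Chek2 (NM_016681, mm9, chr5:111269036-111303152, plus strand), which relays the signal of ATM, was highest in 1 WT family. Embryos of WT father 3 were at 41.1, 68.2 and 40.8 CPM. Embryos of father 1 were at 7.31, 9.23 and 10.8 CPM and those of father 2 at 3.07, 3.07 and 28.0 CPM. Parg(110) embryos ranged from 2.57 to 37.6 CPM around a median of 5.36, and father 7 gave 2.57, 3.31 and 3.42 CPM. All 3 embryos of father 3 were above every other embryo of the series. Among the 3 WT fathers the unadjusted p was 0.0565 and no transcript passed the adjusted threshold in edgeR (0 of 15333, 0%), with 615 at an unadjusted p below 0.05. Between the groups the log2 fold change was -1.24 ± 0.70 (SE, 95% interval -2.68 to 0.21, adjusted p = 0.891), and without father 3 it was -0.08 ± 0.81 (SE). Without father 6, whose embryo 6-2 was at 37.6 CPM, it was -1.96.

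Trp53 (NM_011640, mm9, chr11:69393861-69405375, plus strand) had the largest fitted difference of the members. In WT embryos it was at 1.06, 0 and 90.7 CPM for father 1, at 11.9, 1.47 and 18.2 CPM for father 2 and at 0.174, 48.7 and 34.1 CPM for father 3. In Parg(110) embryos it was at 0, 3.13 and 0 CPM for father 6, at 11.3, 0 and 0.228 CPM for father 7 and at 0.562, 5.75 and 2.92 CPM for father 8. Of the WT embryos 5 lay above every Parg(110) embryo, and the other 4 lay within the range of the Parg(110) embryos. The embryos at 0 (1-2, 6-1, 6-3 and 7-2) had 7153457 to 12497060 counts, which allows at most 0.24 to 0.419 CPM. The number of transcripts with at least 1 count moved with the groups, with a median of 13997 (range 11823 to 16436) in WT and 12678 (range 12064 to 14047) in Parg(110) embryos. Embryo 7-2 had the fewest of the Parg(110) group, 12064, and embryos 6-1, 6-3 and 1-2 had 13273, 14047 and 14162. The part of this in the level of Trp53 was not tested.

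The mean of Trp53 was 22.9 ± 30.6 CPM (SD, n = 9) in WT and 2.65 ± 3.81 CPM (SD, n = 9) in Parg(110) embryos, and the SD exceeded the mean in both. The log2 fold change was -3.10 ± 1.27 (SE, 95% interval -5.72 to -0.48), with an unadjusted p of 0.0225 and an adjusted p of 0.738 in edgeR. Over all alternatives the fold change stayed below 0, between -3.86 (without embryo 7-1) and -2.42 (without embryo 1-3), and the adjusted p between 0.111 and 1. With DESeq2 the adjusted p was 0.357 and with limma, the father as a random effect, 0.761. When the counts were summed per father the log2 fold change was -3.09 ± 0.82 (SE, unadjusted p = 0.00367, adjusted p = 0.999). The 3 Parg(110)-/- father means (1.04, 3.84 and 3.08 CPM) were all below the 3 WT father means (30.6, 10.5 and 27.7 CPM). Trp53 shared that separation with Atm, 2 of 10 members, and 5.87% of all transcripts tested were separated in this direction. The difference in Trp53 passed the adjusted threshold in none of these tests.

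A copy of Trp53 elsewhere in the genome could bear on this row. Bases 80 to 1249 of the Trp53 transcript matched chromosome 17 (mm9, chr17:54558919-54560086) at 95.1% identity, within which the annotation places the pseudogene Trp53-ps. Some 62.7% of the transcript thus has a copy at this identity. Only uniquely mapped reads were counted, and a read that matches both places would be lost from the row. The copy's part in the spread between embryos was not tested. The other Trp53 row, NM_001127233, had the same count in 17 of 18 embryos and 5 against 1 in embryo 3-1.

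Over the 18 embryos, the transcripts whose pattern was most like that of Trp53 were Cldn7 (NM_001193619, Spearman's rho of log2(CPM + 1) = 0.769), Fam186b (NM_001081254, rho = 0.737) and BC004004 (NM_030561, rho = 0.707). All 3 were sparse, with medians of 0.23, 0.70 and 1.42 CPM in WT embryos and 0 in Parg(110) embryos. The next 2, named after their values were seen, were nearly as like and abundant: Zc3h4 (NM_198631, rho = 0.705) had medians of 702 CPM in WT and 463 CPM in Parg(110) embryos, and Gatad2b (NM_139304, rho = 0.703) 340 and 224 CPM. These transcripts were picked as the highest among all that passed the filter, 15333 with the Trp53 rows included, whose median rho was 0.011. The highest of so many values are raised by the picking, and the likeness was not tested. The values of an embryo share a library. Between members, Spearman's rho over the 18 embryos ran from -0.559 (Trp53 with Gadd45a) to 0.414 (Bax with Bbc3) over 45 pairs, with a median of 0.005.

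Mdm2 (NM_010786, mm9, chr10:117125944-117147814, minus strand) was the steadiest member. It ranged from 139 to 286 CPM (median 191) in WT and from 95.9 to 210 CPM (median 195) in Parg(110) embryos, and its coefficient of variation over 18 embryos was 25.1%, against 185% for Trp53. The 3 embryos of father 8 were at 204, 195 and 200 CPM, and the lowest embryo was 6-2. The 4 WT embryos 1-1, 1-3, 2-3 and 3-3 lay above every Parg(110) embryo. Its log2 fold change was -0.26 ± 0.22 (SE, 95% interval -0.71 to 0.19, adjusted p = 0.965). The interval spans a 0.609-fold to a 1.14-fold level.

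**Figure D3:**
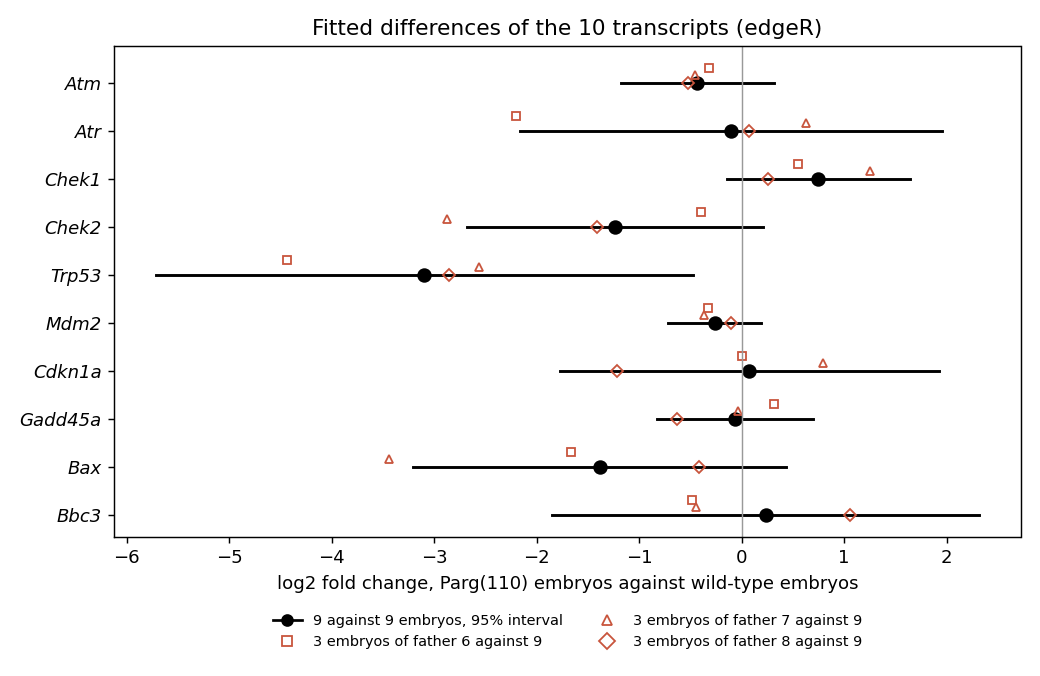
Fitted log2 fold changes (x axis) of the 10 transcripts (y axis); black points and bars give 9 against 9 embryos with the 95% interval, open symbols the 3 embryos of father 6, 7 or 8 against the same 9 WT embryos. The interval of Trp53 (-5.72 to -0.48) lies below 0 without adjustment, those of the other 9 include 0, and the intervals of Mdm2, Atm and Gadd45a are the narrowest.

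Cdkn1a (NM_007669, mm9, chr17:29227924-29237667, plus strand) encodes p21, the inhibitor through which p53 halts the cell cycle. It ranged from 0.288 to 23.1 CPM (median 5.17) in WT and from 0 to 35.8 CPM (median 7.63) in Parg(110) embryos. Embryo 7-3 was the highest at 35.8 CPM, and embryo 8-1 was at 0 of 3560501 counts, which allows up to 0.843 CPM. In edgeR the log2 fold change was 0.07 ± 0.90 (SE, 95% interval -1.78 to 1.92, adjusted p = 1), and limma with the father as a random effect gave -0.47.

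RefSeq places 2 starts in Cdkn1a, and the files hold 2 rows for it, which makes its promoters of interest beside the counts. The windows of 250 bases before each start are given 5′ to 3′, with matches to the p53 half-site consensus in capitals; both were taken from the RefSeq promoter table (GRCm38.p6) and found unchanged at the mm9 positions given.
Cdkn1a, upstream start (mm9, chr17:29227674-29227923, plus strand): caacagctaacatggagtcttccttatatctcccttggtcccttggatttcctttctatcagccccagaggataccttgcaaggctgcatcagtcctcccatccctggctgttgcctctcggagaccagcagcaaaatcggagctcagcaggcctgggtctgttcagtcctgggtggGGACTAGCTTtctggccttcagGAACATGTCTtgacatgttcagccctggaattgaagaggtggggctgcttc
Cdkn1a, downstream start (mm9, chr17:29230464-29230713, plus strand): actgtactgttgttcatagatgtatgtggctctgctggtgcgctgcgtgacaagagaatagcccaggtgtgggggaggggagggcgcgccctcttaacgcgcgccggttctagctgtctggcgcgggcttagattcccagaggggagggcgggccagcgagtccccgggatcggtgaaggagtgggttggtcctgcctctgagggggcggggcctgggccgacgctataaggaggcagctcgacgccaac
The upstream window held 2 half-sites and the downstream window none. The table holds 13 such windows for the 10 members, and 5 of the 13, each of a different gene, had a half-site, against 7.13% of all 32851 windows. Cdkn1a was the only member with 2 half-sites at most 13 bases apart, an arrangement found in 0.064% of the windows. The half-site is its own reverse complement as a consensus, so both strands were covered. The other 4 matches were these, with the number of bases from the first base of the match to the start.
Trp53, 75 bases before the start: GGACTTGCCC
Mdm2, 186 bases before the start: GAACTTGCCT
Gadd45a, 40 bases before the start: GGGCTAGCCC
Bax, 201 bases before the start: AGGCAAGCTT
These matches describe letters in the windows and not bound sites.

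The 2 Cdkn1a rows differed in a way seen after the values were examined. NM_001111099 had the same count as NM_007669 in 11 of 18 embryos and a lower count in 7, and it was never the higher row. The 7 embryos with an excess on NM_007669 were 1-1, 2-1, 2-2, 3-1, 3-2 and 3-3 of the WT group and 7-1 of the Parg(110) group. The excess was 4 to 24 counts per embryo and came to 111 of the 1131 counts on NM_007669. Embryos 6-1 and 7-3 had the most counts on the gene, 216 and 157, and no excess. The tables used here do not pair either row with a start, and no test was made of this difference. How often the rows of other genes differ between the groups in this way was not counted.

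**Figure D4:**
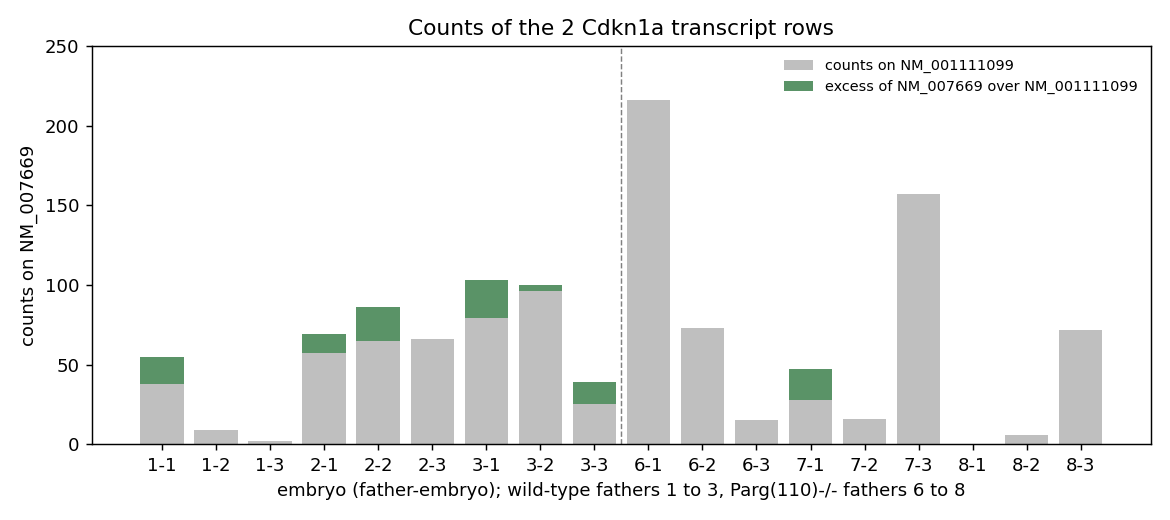
Counts on the Cdkn1a row NM_007669 (y axis) in each embryo (x axis), divided into the count also found on NM_001111099 (grey) and the excess over it (green). The excess appears in 6 WT embryos and in embryo 7-1, and is absent from embryos 6-1 (216 counts) and 7-3 (157 counts).

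Gadd45a (NM_007836, mm9, chr6:66985090-66987451, minus strand), a stress sensor that holds cells before mitosis, was present in every embryo. It ranged from 25.5 to 83.0 CPM (median 47.7) in WT and from 19.3 to 88.4 CPM (median 56.0) in Parg(110) embryos. The lowest 3 embryos of the series were 8-2, 7-1 and 8-3, at 19.3, 21.4 and 21.8 CPM, and the highest was 7-3. The log2 fold change was -0.07 ± 0.37 (SE, 95% interval -0.83 to 0.69, adjusted p = 1). The span of a lincRNA on the opposite strand (E230016M11Rik) covers 859 bases of Gadd45a exons. The exons of the lincRNA were not examined. Without strand, reads of both could enter this row.

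Of the death targets, Bax (NM_007527, mm9, chr7:52717065-52722268, minus strand), which opens the outer mitochondrial membrane, was high in a single embryo. WT embryo 3-1 was at 82.5 CPM, whereas the other 8 WT embryos lay between 0.922 and 14.5 CPM. Parg(110) embryos ranged from 0 (embryo 7-1) to 22.8 CPM (embryo 8-2) around a median of 3.52. Its log2 fold change was -1.38 ± 0.88 (SE, 95% interval -3.21 to 0.44, adjusted p = 0.918), and it was -0.29 ± 0.88 (SE) without embryo 3-1 and -2.0 without embryo 8-2. In the same embryo 3-1 Trp53 was at 0.174 CPM, Chek1 was at its lowest in the series (3.82 CPM) and Gadd45a was at its highest among WT embryos (83.0 CPM).

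Bbc3 (NM_133234, mm9, chr7:16894965-16903554, plus strand) encodes PUMA, which frees BAX to act. It was low throughout, at 0.225 to 6.42 CPM (median 1.54) in WT and 0 to 7.49 CPM (median 1.67) in Parg(110) embryos. The highest embryos were 8-2 (7.49 CPM), 3-1 (6.42 CPM) and 8-3 (6.12 CPM). Its largest count was 44, and 12 of 18 embryos had at least 10 counts. The log2 fold change of 0.23 ± 1.01 (SE, 95% interval -1.85 to 2.32, adjusted p = 1) was within the spread between embryos.

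Taken family by family, no member passed the threshold either. For the embryos of father 6 against the 9 WT embryos 1 of 14377 transcripts was called (0.00696%), and for fathers 7 and 8 none of 14039 and 13936 (0%). These fits had 1032, 1233 and 1246 transcripts at an unadjusted p below 0.05. With edgeR at an unadjusted p below 0.05, father 7 gave 3 members: Chek2 at -2.88 ± 1.11 (log2, SE), Bax at -3.44 ± 1.55 and Chek1 at 1.25 ± 0.59. Father 6 gave none, with Trp53 at -4.43 ± 2.13 (unadjusted p = 0.0523), and father 8 gave none, with Trp53 at -2.86 ± 1.70. The 3 fits share the WT embryos. The 3 Parg(110)-/- fathers were also tested against each other, where edgeR called 0 of 15333 transcripts (0%), with 1260 at an unadjusted p below 0.05, and the smallest unadjusted p of a member was 0.106 (Chek2).

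Each Parg(110) embryo was then set against the 9 WT embryos, a test in which the spread comes from the WT embryos alone. Over the 9 embryos 97 of 19810 transcripts were called at least once (0.49%), and no member was among them. Values below 0 were the usual result of these fits, whose medians over the 18207 transcripts tested in all of them lay between -1.73 and -0.83 (log2 fold change). The fitted difference was below 0 in 9 of 9 embryos for Trp53 and for Mdm2, as it was for 14.2% of those transcripts and for 6.08% of the 15255 that were also tested between the groups. Mdm2 lay between -1.14 and -0.02, and above the median of its fit in every embryo but 6-2. Chek1 was above 0 in 7 of 9 embryos, and 3.8% and 4.54% of the same transcripts were above 0 in 7 or more. The smallest adjusted p of a member was 0.449, for Bax.

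The other genes of the pathway were taken from a list of 61 symbols, for which 84 transcripts were found in the files and 73 of them, of 53 genes, passed the filter. None was called (0 of 73) by edgeR, DESeq2 or limma, with 1 above 0 and 2 below at an unadjusted p below 0.05. Rows of a gene share counts, and 11 of the 53 genes had several, so directions were counted per gene by the median of its rows. Of the 53 genes 32 were fitted above 0 and 21 below (60.4% above, against 49% of 11563 genes tested), with a median log2 fold change of 0.05 against -0.02 over all genes. By role, 12 of 22 sensors and mediators were above 0, 3 of 5 cell cycle targets and phosphatases, 6 of 8 regulators and relatives of p53, and 11 of 18 p53 targets. Counted per row, which gives Trp63 and Timeless several places, 49 of 73 were above 0 and the median was 0.22.

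The smallest p below 0 was that of Sesn1 (NM_001013370), a p53 target of the antioxidant response. It ranged from 0.865 to 78.7 CPM (median 8.11) in WT and from 0 to 12.8 CPM (median 1.44) in Parg(110) embryos, with a log2 fold change of -2.87 ± 0.96 (SE, adjusted p = 0.431). The other Sesn1 row had medians of 26.9 CPM in WT and 8.20 CPM in Parg(110) embryos. There the log2 fold change was -1.25 ± 0.71 (SE, adjusted p = 0.894, edgeR). Mdc1 (NM_001010833), the scaffold that binds marked chromatin at breaks, was present in every embryo at 244 to 830 CPM in WT and 117 to 363 CPM in Parg(110) embryos (log2 fold change -0.78 ± 0.30, SE, adjusted p = 0.637). Gadd45b (NM_008655), a relative of Gadd45a, was at -2.02 ± 1.05 (log2, SE, adjusted p = 0.887). Above 0, Ccng1 (NM_009831), another p53 target, was at 0 in 4 WT embryos and 1 Parg(110) embryo. It ranged from 0 to 3.44 CPM (median 0.288) in WT and from 0 to 19.7 CPM (median 2.05) in Parg(110) embryos. Its log2 fold change of 2.91 ± 1.28 (SE, adjusted p = 0.805, edgeR) thus rests on WT levels near the floor. Trp63, the p53 relative that guards oocytes, gave the next 2 rows (NM_001127259 and NM_001127260), which had equal counts. Their level was 0 to 80.3 CPM in WT and 0.534 to 154 CPM in Parg(110) embryos (log2 fold change 1.56 ± 0.83, SE, adjusted p = 0.889).

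**Figure D5:**
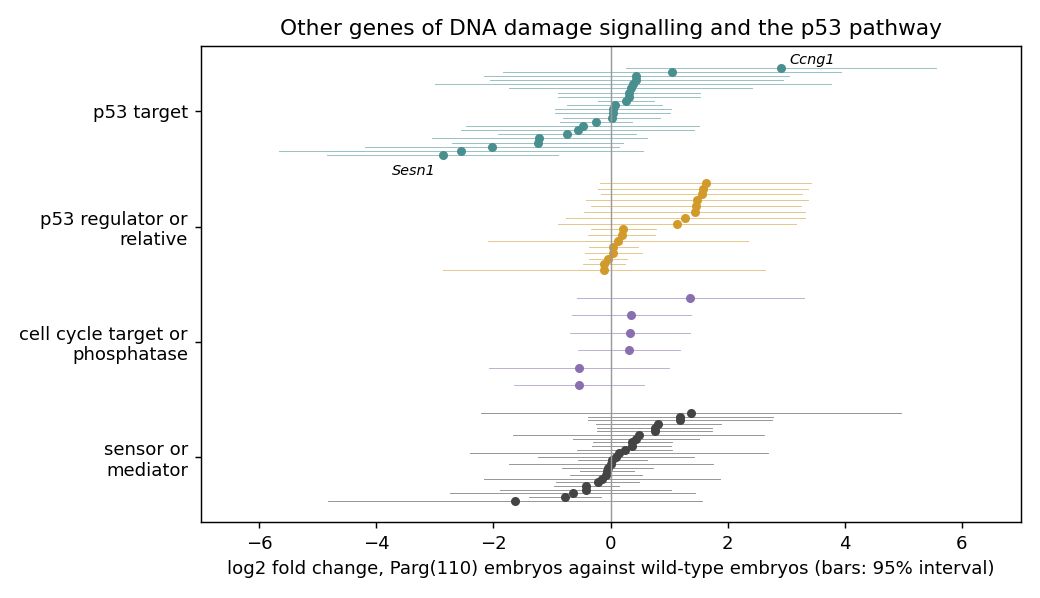
Fitted log2 fold changes (x axis, points) with 95% intervals (bars) of the other pathway transcripts, grouped by role (y axis), for 9 Parg(110) against 9 WT embryos; rows with equal counts are drawn once. The p53 targets hold both the lowest value, the Sesn1 row NM_001013370 at -2.87, and the highest, Ccng1 at 2.91. The WT median of Ccng1 was 0.288 CPM. The other Sesn1 row was at -1.25, and none passed the adjusted threshold.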

How the data were processed

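RNA of 18 single 2-cell embryos was amplified by the authors (WT-Ovation One-Direct), sequenced on an Illumina instrument and mapped to mm9 with RUM, with reads that did not map uniquely excluded. The authors deposited these as raw counts, 1 row per RefSeq transcript. The submitters' processing notes name DESeq 1.10.0. Amplification can lose rare transcripts, and transcripts of a gene share counts. A count of 1 was worth 0.075 to 0.351 CPM, and limits for 0 counts (3 counts of the total) cover counting error only.

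Counts were fitted here with edgeR 4.0.16 (R 4.3.3; TMM, quasi-likelihood test, Benjamini-Hochberg adjustment over all transcripts that reached 10 counts in 3 or more embryos, or in 1 or more for single embryos). Differences with an adjusted p below 0.1 were called. Standard errors are log2 fold changes over the root of their F statistics. Alternatives used DESeq2 1.42.0, limma 3.58.1 (log2 CPM, father as a random effect), other scalings, filters and a threshold of 0.05, sums per father, a block by embryo number, and fits that omitted a father or an embryo. The edgeR test, and not the whole set of scripts, was run on simulated counts with large planted changes. Its recovery is not reported here, and smaller changes were not simulated. Embryos of a father are not independent, and p-values over embryos treat them as if they were.

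Identifiers were paired with symbols through the RefSeq gene table, which matched 26136 of 26823. Positions and lengths are those of GENCODE vM1 on mm9. Copies were searched with blastn at 95% identity or more over at least 50 bases. The p53 half-site consensus of 10 bases was searched in 250 bases before each RefSeq start.

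The members and lists were chosen with earlier results of these data known. The text names all 10 members, Parg, the pathway transcripts with the 3 smallest p-values in each direction, and the 3 transcripts most like Trp53. Zc3h4 and Gatad2b, the next most like it, were named after their values were seen.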

Additional observations from a re-analysis of the deposited data

Results flagged for a closer look

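In each group of 9 embryos, the gap between the highest or lowest embryo and its neighbour was set against the whole range for the 10 members, 20 sets of values in all. It was large in 5 sets, and each time the embryo was the highest of its group. The limit used is passed by about 1 in 20 sets of normally distributed values. CPM of these transcripts are skewed upwards, so the 5 cannot be read against that share, and with the values as log2(CPM + 1), a scale chosen after seeing the data, 2 sets passed it. For Bax, WT embryo 3-1 was at 82.5 CPM and the next WT embryo at 14.5 CPM, and Parg(110) embryo 8-2 was at 22.8 CPM with the next at 7.93 CPM. For Atr, WT embryo 2-3 was at 18.6 CPM and the next at 7.00 CPM. Embryo 2-3 also had the smallest total of the series, 2852858 counts. The part of depth in its level was not tested. For Chek2, Parg(110) embryo 6-2 was at 37.6 CPM and the next at 17.1 CPM, and for Cdkn1a, Parg(110) embryo 7-3 was at 35.8 CPM and the next at 17.3 CPM.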

How the results depend on the processing

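No member was called between the groups, in any family, in any single embryo or among the fathers under any of the alternatives run for these comparisons, and no other pathway transcript was called between the groups. These counts were 0 in the main analysis too, so they show no stability of an effect. Counts over all transcripts did depend on the alternative. Without the filter on low counts, edgeR called 437 of 22526 transcripts among fathers 6, 7 and 8 and 168 among the WT fathers. With the filter both counts were 0 of 15333. Unfiltered, father 6 had 7 of 21809 called against WT embryos, father 7 had 29 of 21805 and father 8 had 0 of 21645. Between the groups 0 of 22526 were called unfiltered, and 5 of 14571 without father 6. The log2 fold changes of Atm, Chek1, Chek2, Trp53, Mdm2 and Bax kept their sign in all 32 alternatives. When a father or an embryo was left out, Atr lay between -0.88 and 0.63, Cdkn1a between -0.53 and 0.47, Gadd45a between -0.31 and 0.15 and Bbc3 between -0.46 and 0.69, so their signs turned. Leaving out single embryos was an alternative chosen after seeing the data. Limma with the father as a random effect moved Atr from -0.10 to -1.14, turned Cdkn1a to -0.47 and Bbc3 to -0.03, and moved the median of all transcripts to -0.17. With the embryo number as a replicate block Atr was at -0.76, Cdkn1a was at -0.16 and 0 members were called. Embryos of the 2 groups with the same number had a median r of 0.006 over 27 pairs (range -0.122 to 0.178). Pairs with other numbers had a median r of -0.002 over 54 pairs (range -0.092 to 0.13). Whether embryos of the same number shared any processing was not tested. Without a filter on low counts the adjusted p of Trp53 was 0.111, and 4447 of 22526 transcripts had an unadjusted p below 0.05. Bax was nearer 0 without embryo 3-1 (-0.29) or WT father 3 (-0.28) and further from it without embryo 8-2 (-2.0) or father 8 (-2.27). Chek2 was at -0.08 without father 3, at -1.96 without father 6 and at -1.88 without embryo 6-2. The cause was not tested. Scaling by TMM moved no group mean or median by more than the SD between embryos. At these depths a member near 1 CPM rests on a few counts, which limits Atr, Bbc3 and Trp53 most.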
